A study of Homo sapiens with 6 samples.

Results

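The genes described here make cholesterol, control its supply, or move, store and export it in LX2 cells, an established line of human hepatic stellate cells. They were taken by name from the deposited expression table and kept where the mean over all 6 libraries was 50 or more. Of 36 listed names, 34 were rows of the table and all 34 passed that mean, among 12654 rows and 12413 rows that passed it. The remaining names, SC5DL and SC4MOL, are older symbols of the listed genes SC5D and MSMO1. By the title of the series, the study asked how loss of METTL3, the catalytic subunit that writes N6-methyladenosine on RNA, affects stellate cell activation. Cells carried hairpin shMETTL3-1 or hairpin shMETTL3-2, both against METTL3, or hairpin shLuc, against firefly luciferase, with 2 libraries for each. All 3 groups received lentivirus in the pLKO.1 vector made in HEK293T cells, with polybrene and puromycin selection, so the shLuc cells share infection and selection with the others. Nothing in the labels says whether replicates were infected or cultured separately, and the p-values therefore cover only the spread seen here, which could be technical.

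Cholesterol is built from acetyl-CoA through mevalonate, isoprenoid diphosphates, squalene and lanosterol. When sterols in the endoplasmic reticulum run low, the escort protein SCAP carries the membrane-bound factors SREBP1 and SREBP2 to the Golgi, where site-1 and site-2 proteases release their transcription factor domains, and INSIG proteins hold SCAP back when sterols are plentiful. SREBP2 is known for driving the enzymes of synthesis and lipoprotein uptake, while the liver X receptors respond to oxysterols and drive efflux genes such as ABCA1. Stellate cells are known for storing retinyl esters in lipid droplets, and free cholesterol in them is a known topic of fibrosis research.

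Each value is a deposited score without a unit. All 6 columns have a median of 552 and a maximum of 72566, and 87.3% of ranks hold an identical value in every library, so a score is close to a rank placed on a common scale. Depth per library is therefore unknown, and a change shared by every gene cannot appear in such values. Between replicates, the median log2 difference of the members lay between 0.07 and 0.11. METTL3 scored 274 and 256 with shMETTL3-1, 148 and 132 with shMETTL3-2, and 536 and 552 with shLuc, a change of -1.04 and -1.95 on the log2(score + 1) scale (limma, adjusted p = 0.000107 and 6.44e-06). METTL3 was lower in every library of both hairpins, and lower with shMETTL3-2 than with shMETTL3-1. All 8 listed markers of a stellate cell line were in the table, among them COL1A1 and VIM, while ALB, a hepatocyte marker, scored 144 and 139 with shMETTL3-1, 130 and 140 with shMETTL3-2, and 132 and 250 with shLuc. The summed score of the 8 stellate markers ranged from 132827 to 133782 with shMETTL3-1, 89454 to 94448 with shMETTL3-2, and 144123 to 151899 with shLuc, a sum carried by COL1A1, at the table's maximum in all libraries but those of shMETTL3-2, and VIM. Single markers differed more: ACTA2 scored 917 and 1040 with shMETTL3-1, 1394 and 1694 with shMETTL3-2, and 8266 and 9713 with shLuc, and COL3A1 scored 5131 and 5280, 12146 and 15434, and 4631 and 6150 in the same groups. PDGFRB scored 680 and 656 with shMETTL3-1, 1236 and 1419 with shMETTL3-2, and 1808 and 1718 with shLuc, and LOX scored 5770 and 6354, 11356 in both, and 12606 in both. The sum of the 2 of 4 endothelial markers in the table ranged from 57 to 89 with shMETTL3-1, 53 to 55 with shMETTL3-2, and 236 to 268 with shLuc. That of the 2 of 4 bile duct markers ranged from 812 to 980, 384 to 484, and 434 to 442 in the same groups, most of it from SOX9, and that of the 2 of 5 hepatocyte markers from 292 to 296, 218 to 237, and 236 to 342. The sum of the 3 of 4 macrophage and blood markers ranged from 1167 to 1514 with shMETTL3-1, 1446 to 1451 with shMETTL3-2, and 841 to 867 with shLuc. Only CD68 of these 3 was higher in every library of both hairpins, at 1150 and 1005, 1053 and 1083, and 392 and 360, while PTPRC scored 259 and 0, 255 and 214, and 317 and 298, and CD14 105 and 162, 138 and 154, and 158 and 183. The part of these differences in the results below was not tested, and in such bulk samples fewer cells of a type and less RNA per cell cannot be told apart.

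Promoter sequence is shown first for 6 members called higher with shMETTL3-2 that hold CCAAT, with ABCA1, whose window holds none, beside them. These were chosen with their values known and do not stand for all members. Each line is a window from 160 to 31 bases before a RefSeq gene start, read 5′ to 3′ on the gene's strand (GRCh38.p14). Capitals mark CCAAT on either strand (the box bound by NF-Y, a known partner of SREBPs), TCACNCCAC on either strand (the core of a sterol regulatory element), or CACGTG (an E-box).
HMGCS1, chr5:43313443-43313572, minus strand: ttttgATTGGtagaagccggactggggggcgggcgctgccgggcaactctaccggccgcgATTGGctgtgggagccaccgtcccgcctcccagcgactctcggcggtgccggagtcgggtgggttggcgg
MVK, chr12:109573634-109573763, plus strand: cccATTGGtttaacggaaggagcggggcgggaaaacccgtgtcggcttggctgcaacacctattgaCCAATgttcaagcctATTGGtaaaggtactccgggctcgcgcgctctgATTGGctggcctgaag
MVD, chr16:88663122-88663251, minus strand: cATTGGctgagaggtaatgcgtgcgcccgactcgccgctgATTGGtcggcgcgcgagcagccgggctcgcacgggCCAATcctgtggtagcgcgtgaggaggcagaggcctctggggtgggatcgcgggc
MSMO1, chr4:165327509-165327638, plus strand: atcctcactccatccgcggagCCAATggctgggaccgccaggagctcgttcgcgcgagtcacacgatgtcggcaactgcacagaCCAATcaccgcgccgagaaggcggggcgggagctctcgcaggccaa
DHCR7, chr11:71448424-71448553, minus strand: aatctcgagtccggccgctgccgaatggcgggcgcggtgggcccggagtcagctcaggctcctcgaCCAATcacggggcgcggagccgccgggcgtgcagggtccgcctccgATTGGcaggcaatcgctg
SREBF2, chr22:41832945-41833074, plus strand: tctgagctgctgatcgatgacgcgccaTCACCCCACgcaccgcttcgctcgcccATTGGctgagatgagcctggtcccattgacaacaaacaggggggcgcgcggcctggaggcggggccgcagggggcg
ABCA1, chr9:104928186-104928315, minus strand: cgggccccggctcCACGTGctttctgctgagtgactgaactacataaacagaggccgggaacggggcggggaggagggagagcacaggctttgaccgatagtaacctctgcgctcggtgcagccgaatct

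MVK holds 4 CCAAT boxes in this window, MVD 3, HMGCS1, MSMO1 and DHCR7 2 each, and SREBF2 1. For HMGCS1 and DHCR7, which have 2 annotated starts each, the start whose window holds more of the motifs is shown. Starts were taken by gene symbol and were not matched to the deposited transcripts. Those span 33.3% of the annotated gene for MVK, 44.1% for DHCR7 and 47.5% for MVD, so their starts may differ from those shown. Over whole promoters, from 250 bases before to 50 after a start, 31 of the 34 members had a sequence in the table used, and 21 of them (67.7%) hold CCAAT at 1 or more of their starts. Among the 17 synthesis enzymes with a sequence, 14 (82.4%) hold it. The share was 43.4% over the 9107 tested genes with a promoter and 34.6% over all 35116 promoters. Members and tested genes are counted per gene, with any of its starts, whereas the last share is per promoter. A gene with more starts has more chances of a match, and starts per gene were not matched between members and tested genes. TCACNCCAC occurs in 1 member, SREBF2 (3.23%), beside 1.55% of tested genes and 1.13% of all promoters. Its looser form TCANNCCAC occurs in INSIG1 and SREBF2 (6.45%), beside 4.3% of tested genes and 3.82% of all promoters. CACGTG is held by 5 members (16.1%), beside 12.8% of tested genes and 7.26% of all promoters. GGGCGG is held by 27 members (87.1%), beside 77.8% of tested genes and 45.0% of all promoters. TGACGTCA is held by 0 members, beside 3.83% of tested genes and 1.85% of all promoters. CCAAT did not follow the change in score gene by gene. PMVK, CYP51A1, SREBF1, SCAP, MBTPS2, NPC1 and ABCA1, called higher with shMETTL3-2, have no match. LSS and STARD4, called lower with it, hold CCAAT, as do EBP, GGPS1, TM7SF2, HSD17B7 and OSBP, not called with it. All motifs were searched on both strands; TCACNCCAC is contained in TCANNCCAC. A match is a description of letters, and occupancy of these promoters was not measured.

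Most enzymes of synthesis were called higher with shMETTL3-2 than with shLuc, and few with shMETTL3-1. With shMETTL3-2, 14 of 20 enzymes rose, 2 fell and 4 did not pass, where 59.6% of all genes tested were called, 30.8% higher and 28.8% lower. With shMETTL3-1, 4 rose, 8 fell and 8 did not pass, where 58.7% of all genes were called, 30.3% higher and 28.4% lower. The median change of the 20 enzymes was -0.02 with shMETTL3-1 and 0.83 with shMETTL3-2, beside 0.01 and 0.01 over all genes tested. Compared directly, 15 enzymes were lower with shMETTL3-1 than with shMETTL3-2, 2 were higher and 3 did not pass, and the median difference was -1.01 (0.01 over all genes). The shLuc scores do not enter these differences, but the shLuc libraries share in the spread behind their p-values. A fit of those 2 groups alone also called 15 enzymes lower. In that comparison 63.0% of all genes were called, 31.1% higher and 31.9% lower. Among fits leaving out 1 library, only that without shLuc replicate 1 changed which enzymes rose with shMETTL3-2, losing PMVK and gaining GGPS1. The enzymes lower between the hairpins stayed the same in those fits. Without trend and robust moderation, 16 enzymes rose with shMETTL3-2. Both comparisons with shLuc use the same control libraries, so their values are given side by side and not as independent evidence.

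**Figure D1:**
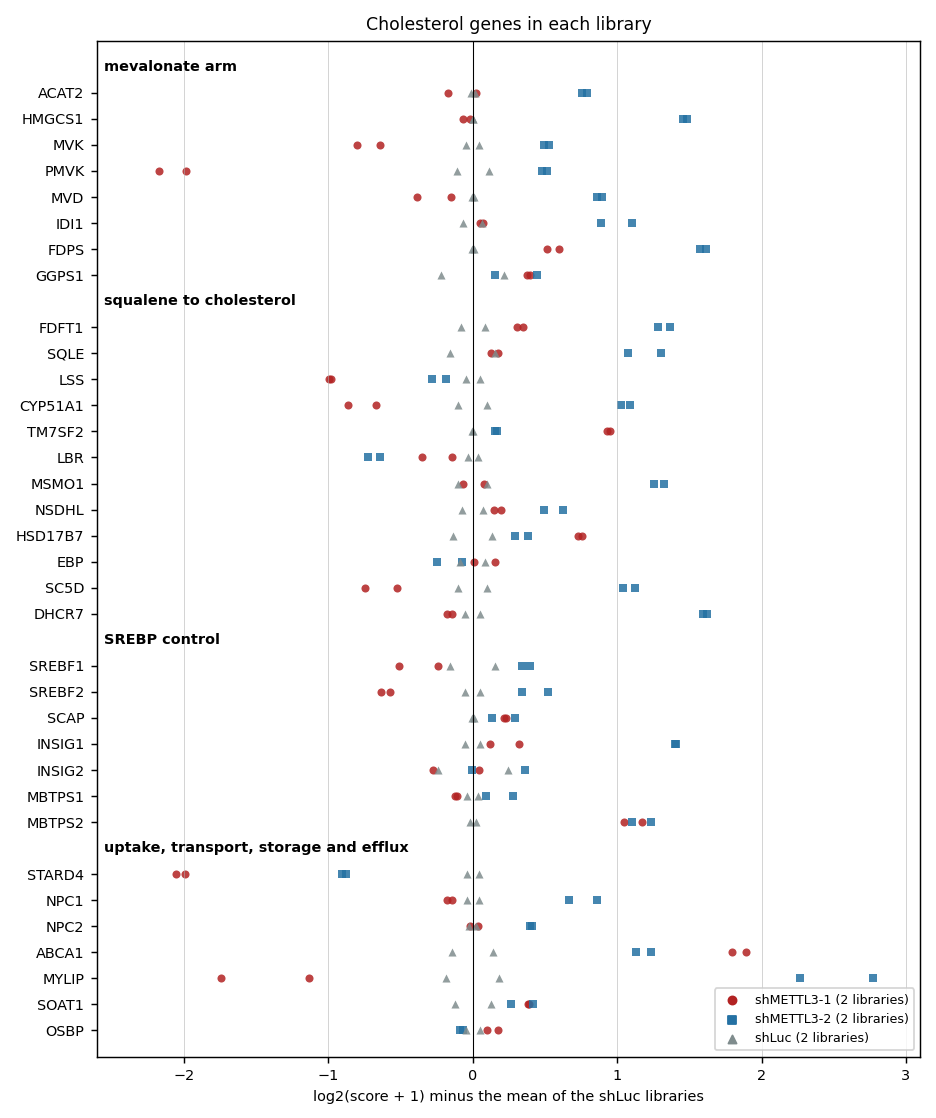
Each row is a gene and each point a library, placed by its log2(score + 1) minus the mean of the shLuc libraries, for shMETTL3-1 (circles), shMETTL3-2 (squares) and shLuc (triangles). Squares of most mevalonate and sterol enzymes lie to the right of both other groups, whereas STARD4 lies left with both hairpins and ABCA1 right with both.

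In the mevalonate arm, 7 of 8 genes rose with shMETTL3-2 and 0 fell, and 1 rose and 3 fell with shMETTL3-1. The share called was 87.5% with shMETTL3-2, beside 59.6% of all genes tested, and 50% with shMETTL3-1, beside 58.7%. HMGCS1, which condenses acetoacetyl-CoA and acetyl-CoA to HMG-CoA (hg19 chromosome 5, 43289497 to 43313595), scored 1818 and 1752 with shMETTL3-1, 5134 and 5037 with shMETTL3-2, and 1838 in both shLuc libraries. The shMETTL3-2 scores stood far above all others, while those of shMETTL3-1 lay just under shLuc. It rose 2.77-fold with shMETTL3-2 (log2 1.47, SE 0.05, adjusted p = 1.39e-06), and its change of -0.04 with shMETTL3-1 did not pass (95% interval -0.15 to 0.07). ACAT2, a cytosolic thiolase that makes acetoacetyl-CoA, scored 1868 and 1636 with shMETTL3-1, 3101 and 3188 with shMETTL3-2, and 1856 and 1820 with shLuc. Its shMETTL3-1 and shLuc scores overlapped, and the rise with shMETTL3-2 was 0.77 on the log2 scale (SE 0.07, adjusted p = 7.97e-05).

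MVK, PMVK and MVD act in turn, phosphorylating mevalonate in 2 steps and decarboxylating it to isopentenyl diphosphate. All 3 were called lower with shMETTL3-1 and higher with shMETTL3-2. MVK (chromosome 12, 110011060 to 110019340) scored 336 and 376 with shMETTL3-1, 846 and 824 with shMETTL3-2, and 568 and 604 with shLuc, so that no group overlapped another. Its log2 change was -0.72 (adjusted p = 0.000238) with shMETTL3-1 and 0.51 (adjusted p = 0.00124) with shMETTL3-2. PMVK (chromosome 1, 154897210 to 154909467) scored 73 and 64 with shMETTL3-1, 408 and 418 with shMETTL3-2, and 270 and 315 with shLuc. Its fall of 4.22-fold with shMETTL3-1 (log2 -2.08, SE 0.12, adjusted p = 1.23e-05) was the largest among the 20 synthesis enzymes in either comparison with shLuc. The PMVK rise with shMETTL3-2 (log2 0.50, adjusted p = 0.00973) did not pass without shLuc replicate 1 (0.39). MVD scored 587 and 498 with shMETTL3-1, 1182 and 1212 with shMETTL3-2, and 654 and 648 with shLuc. Its rise with shMETTL3-2 was 0.88 (adjusted p = 0.000121), whereas its fall with shMETTL3-1 (-0.27, adjusted p = 0.0306) did not pass without shLuc replicate 1 (-0.26), shLuc replicate 2 (-0.27) or shMETTL3-1 replicate 2 (-0.15).

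The later steps of this arm make the isoprenoid diphosphates. IDI1, which isomerizes isopentenyl diphosphate, scored 532 and 538 with shMETTL3-1, 1102 and 948 with shMETTL3-2, and 536 and 490 with shLuc, a rise of 1.99-fold with shMETTL3-2 (adjusted p = 8.46e-05). FDPS, which makes farnesyl diphosphate (chromosome 1, 155278546 to 155289479), scored 1306 and 1237 with shMETTL3-1, 2579 and 2646 with shMETTL3-2, and 869 and 860 with shLuc. FDPS rose with both hairpins, by 0.56 (adjusted p = 0.000123) and 1.59 (adjusted p = 1.57e-06) on the log2 scale, and it was the 1 member of the arm called higher with shMETTL3-1. GGPS1, which extends farnesyl to geranylgeranyl diphosphate for protein prenylation, scored 267 and 270 with shMETTL3-1, 279 and 228 with shMETTL3-2, and 239 and 176 with shLuc. Neither change passed (0.39 and 0.30), though both did without shLuc replicate 1 (0.61 and 0.52), and the hairpins differed by 0.09 (95% interval -0.30 to 0.48). The GRCh37 annotation names 8 pseudogenes of FDPS and 3 of IDI1, and, among the later enzymes, 3 of CYP51A1 and 2 of HSD17B7. How reads shared with such copies were assigned is not given in the sources used here.

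From squalene to cholesterol, 7 of 12 genes rose with shMETTL3-2 and 2 fell, and 3 rose and 5 fell with shMETTL3-1. The share called was 75% with shMETTL3-2, beside 59.6% of all genes tested, and 66.7% with shMETTL3-1, beside 58.7%. FDFT1, which joins farnesyl diphosphates into squalene, scored 1471 and 1432 with shMETTL3-1, 2808 and 2974 with shMETTL3-2, and 1090 and 1225 with shLuc. It rose with both hairpins, by 0.33 (adjusted p = 0.00523) and 1.32 (adjusted p = 7.78e-06). SQLE, the epoxidase of squalene and a rate-limiting step, scored 1204 and 1242 with shMETTL3-1, 2318 and 2718 with shMETTL3-2, and 990 and 1226 with shLuc. SQLE overlapped shLuc with shMETTL3-1 (log2 0.15, 95% interval -0.13 to 0.43) and rose by 1.19 with shMETTL3-2 (adjusted p = 0.000179).

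LSS, which closes the sterol rings to lanosterol (chromosome 21, 47608055 to 47648736), lay under shLuc for either hairpin. Its scores were 737 and 732 with shMETTL3-1, 1196 and 1282 with shMETTL3-2, and 1408 and 1508 with shLuc, with shMETTL3-1 the lowest and no overlap between groups. LSS fell by 0.99 with shMETTL3-1 (adjusted p = 1.88e-05) and was called lower at -0.24 with shMETTL3-2 (adjusted p = 0.0156), a call lost without shLuc replicate 2 (-0.19) or shMETTL3-2 replicate 1 (-0.19). CYP51A1, the lanosterol demethylase (chromosome 7, 91741465 to 91763844), scored 808 and 926 with shMETTL3-1, 3004 and 3137 with shMETTL3-2, and 1372 and 1580 with shLuc. It fell 1.70-fold with shMETTL3-1 (log2 -0.77, adjusted p = 0.000314) and rose 2.08-fold with shMETTL3-2 (1.06, adjusted p = 6.44e-05). Between the hairpins CYP51A1 differed 3.55-fold.

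The C14 reduction that follows can be done by TM7SF2 or by LBR, an inner nuclear membrane protein that also binds lamin B. TM7SF2 scored 876 and 890 with shMETTL3-1, 512 and 516 with shMETTL3-2, and 461 and 459 with shLuc. It rose 1.92-fold with shMETTL3-1 (log2 0.94, adjusted p = 2.03e-05), while 0.16 with shMETTL3-2 did not pass (adjusted p = 0.059). LBR scored 1306 and 1504 with shMETTL3-1, 1004 and 1066 with shMETTL3-2, and 1703 and 1622 with shLuc. LBR fell by 0.68 with shMETTL3-2 (adjusted p = 0.000273), and its fall of 0.25 with shMETTL3-1 did not pass without shLuc replicate 1 (-0.21), shLuc replicate 2 (-0.28) or shMETTL3-1 replicate 1 (-0.14). These were the 2 synthesis enzymes that were higher with shMETTL3-1 than with shMETTL3-2, by 0.78 (adjusted p = 3.93e-05) and 0.44 (adjusted p = 0.00223).

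The demethylation and finishing steps held both large rises with shMETTL3-2 and genes that did not pass. MSMO1, the C4 methyl oxidase, scored 1461 and 1613 with shMETTL3-1, 3644 and 3822 with shMETTL3-2, and 1424 and 1640 with shLuc. MSMO1 overlapped shLuc with shMETTL3-1 (log2 0.01, 95% interval -0.19 to 0.20) and rose by 1.29 with shMETTL3-2 (adjusted p = 1.71e-05). NSDHL and HSD17B7 complete the removal of the C4 methyl groups. NSDHL, scoring 856 and 826 with shMETTL3-1, 1048 and 1152 with shMETTL3-2, and 709 and 784 with shLuc, rose by 0.56 with shMETTL3-2 (adjusted p = 0.000673) and changed by 0.17 with shMETTL3-1 without passing (adjusted p = 0.0922). HSD17B7 scored 90 and 88 with shMETTL3-1, 69 and 65 with shMETTL3-2, and 48 and 58 with shLuc, the lowest mean of all members, and rose with shMETTL3-1 (0.74, or 0.43 with a pseudocount of 50, adjusted p = 0.008 at the pseudocount of 1). EBP, the sterol isomerase, scored 428 and 474 with shMETTL3-1, 359 and 404 with shMETTL3-2, and 400 and 452 with shLuc, and its changes of 0.08 and -0.16 did not pass.

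SC5D and DHCR7 act last, SC5D as the C5 desaturase and DHCR7 as the reductase whose product is cholesterol. SC5D (chromosome 11, 121163162 to 121179403) scored 246 and 288 with shMETTL3-1, 902 and 852 with shMETTL3-2, and 444 and 386 with shLuc, with no overlap between groups. SC5D fell by 0.64 (adjusted p = 0.00181) with shMETTL3-1 and rose by 1.08 (adjusted p = 0.00013) with shMETTL3-2. DHCR7 (chromosome 11, 71139239 to 71150111) scored 1342 and 1376 with shMETTL3-1, 4580 and 4668 with shMETTL3-2, and 1464 and 1570 with shLuc. Its rise of 3.05-fold with shMETTL3-2 (log2 1.61, SE 0.05, adjusted p = 1.56e-06) was the largest of the enzymes. The fall of DHCR7 with shMETTL3-1 was small (-0.16, adjusted p = 0.0388) and did not pass without shLuc replicate 2 (-0.11), shMETTL3-1 replicate 1 (-0.14), shMETTL3-1 replicate 2 (-0.18) or shMETTL3-2 replicate 2 (-0.16).

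**Figure D2:**
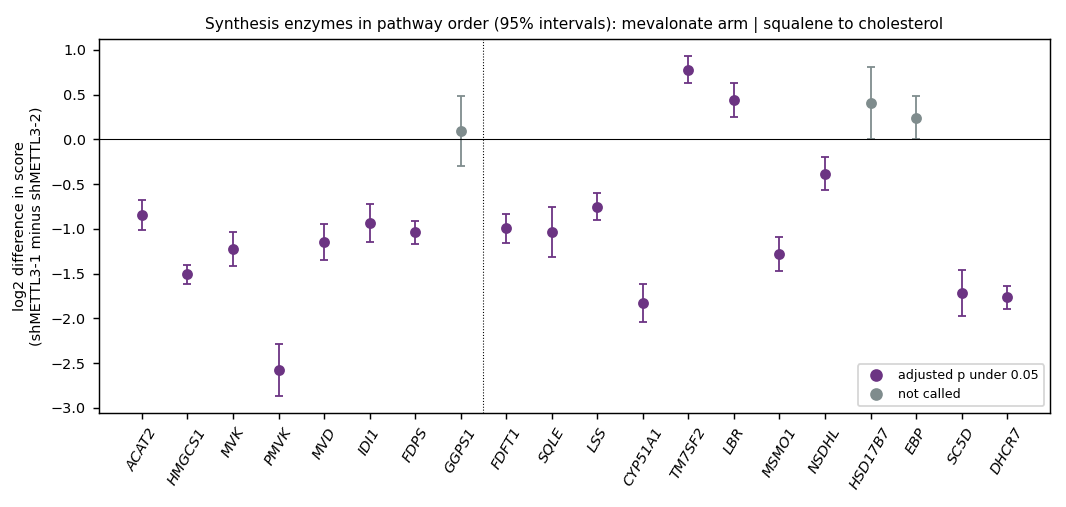
The 20 synthesis enzymes are ordered along the route, with the log2 difference in score between shMETTL3-1 and shMETTL3-2 and its 95% interval on the vertical axis. The 15 enzymes called lower with shMETTL3-1 run from -0.39 for NSDHL to -2.58 for PMVK, and TM7SF2 and LBR lie above 0.

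Of the 7 genes that control SREBPs, 3 rose and 2 fell with shMETTL3-1, 5 rose and 0 fell with shMETTL3-2, and 4 were lower with shMETTL3-1 than with shMETTL3-2. Their share called was 71.4% with either hairpin, beside 58.7% and 59.6% of all genes. Between the hairpins it was 57.1%, beside 63.0%. SREBF2, which encodes SREBP2 (chromosome 22, 42229109 to 42303312), scored 3124 and 3274 with shMETTL3-1, 6158 and 6990 with shMETTL3-2, and 4680 and 5044 with shLuc. The 3 groups did not overlap, with shMETTL3-1 lowest and shMETTL3-2 highest. SREBF2 fell by 0.60 with shMETTL3-1 (SE 0.07, adjusted p = 0.000369) and rose by 0.43 with shMETTL3-2 (adjusted p = 0.00181). Its scores were 2.05-fold lower with shMETTL3-1 than with shMETTL3-2 (adjusted p = 2.29e-05). SREBF1, which encodes SREBP1, scored 324 and 390 with shMETTL3-1, 584 and 608 with shMETTL3-2, and 414 and 513 with shLuc. Between the hairpins SREBF1 differed by -0.74 (adjusted p = 0.00181), but its changes against shLuc stood near the threshold. Its fall of 0.37 with shMETTL3-1 (adjusted p = 0.0395) did not pass without shLuc replicate 2 (-0.22) or shMETTL3-1 replicate 1 (-0.24), nor its rise of 0.37 with shMETTL3-2 (adjusted p = 0.0404) without shLuc replicate 1 (0.22), shMETTL3-2 replicate 1 (0.40) or shMETTL3-2 replicate 2 (0.34). The transcript deposited for SREBF1 spans 12.7% of the annotated gene and that for MBTPS1 6.78%. It spans 33.3% for MVK, 36.7% for NPC1, 39.2% for MBTPS2, 44.1% for DHCR7, 44.7% for FDFT1, 44.9% for CYP51A1 and 47.5% for MVD. Whether reads were counted over the transcript or the gene is not given in the sources used here.

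INSIG1, which retains SCAP and is itself a known SREBP target (chromosome 7, 155089486 to 155101945), scored 1011 and 1162 with shMETTL3-1, 2466 and 2454 with shMETTL3-2, and 896 and 963 with shLuc. It rose 2.65-fold with shMETTL3-2 (log2 1.40, adjusted p = 9.34e-06). The INSIG1 rise with shMETTL3-1 (0.22, adjusted p = 0.0416) did not pass without shLuc replicate 1 (0.17), shLuc replicate 2 (0.27), shMETTL3-1 replicate 2 (0.12), shMETTL3-2 replicate 1 (0.22) or shMETTL3-2 replicate 2 (0.22). INSIG2, its paralog, passed in no comparison and varied widely between replicates, at 124 and 155 with shMETTL3-1, 194 and 150 with shMETTL3-2, and 178 and 127 with shLuc.

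MBTPS2, the site-2 protease (chromosome X, 21857754 to 21875711), rose with both hairpins. It scored 1158 and 1062 with shMETTL3-1, 1102 and 1207 with shMETTL3-2, and 505 and 520 with shLuc, a rise of 2.16-fold and 2.25-fold (adjusted p = 2.09e-05 and 1.65e-05). The hairpins differed for MBTPS2 by -0.06 (95% interval -0.23 to 0.12). MBTPS1, the site-1 protease, passed with neither hairpin (-0.11 and 0.19), though 0.28 passed without shMETTL3-2 replicate 1. It was lower with shMETTL3-1 than with shMETTL3-2 (-0.30, adjusted p = 0.00807), except without shMETTL3-1 replicate 2 (-0.29). SCAP was called higher with both (0.22 and 0.21, adjusted p = 0.018 and 0.021). With shMETTL3-1 that call was lost without shLuc replicate 1 (0.23), shLuc replicate 2 (0.22), shMETTL3-1 replicate 1 (0.23) or shMETTL3-1 replicate 2 (0.21), and with shMETTL3-2 without shLuc replicate 1 (0.22), shLuc replicate 2 (0.21) or shMETTL3-2 replicate 2 (0.14).

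**Figure D3:**
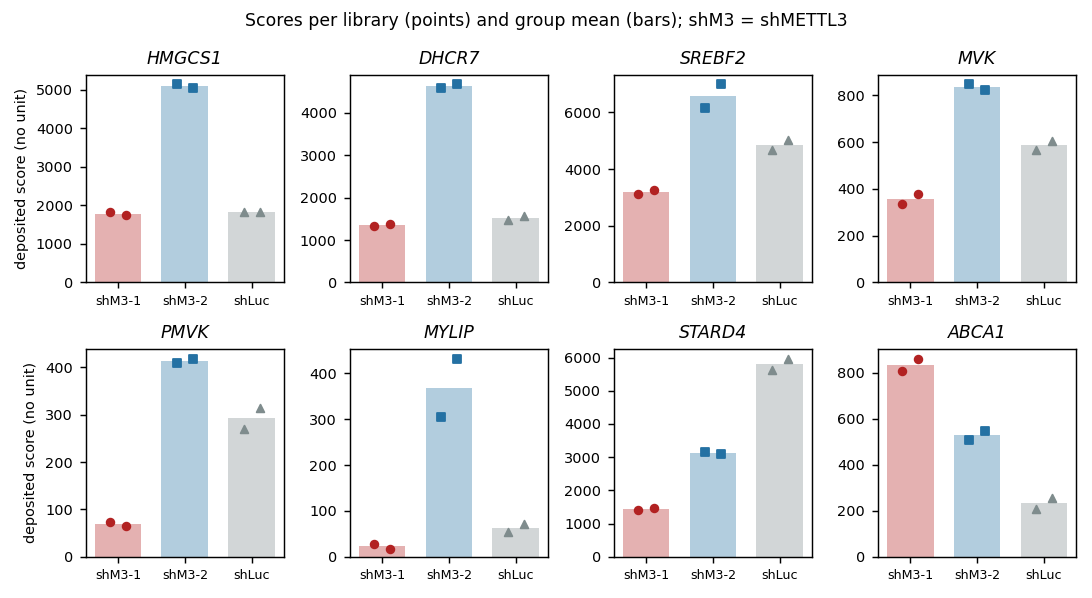
Bars are group means of the deposited score, which starts at 0 and has no unit, and points are the 2 libraries of shMETTL3-1, shMETTL3-2 and shLuc (shM3 stands for shMETTL3). HMGCS1 and DHCR7 are high with shMETTL3-2 alone, SREBF2, MVK, PMVK and MYLIP lie lowest with shMETTL3-1 and highest with shMETTL3-2, STARD4 is highest with shLuc, and ABCA1 is lowest with shLuc.

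Of the 7 members that take up, carry, store or export cholesterol, 2 rose and 2 fell with shMETTL3-1, and 5 rose and 1 fell with shMETTL3-2. Their share called with shMETTL3-1, 57.1%, was near the 58.7% of all genes tested, and with shMETTL3-2 it was 85.7%, beside 59.6%. NPC1 and NPC2 pass cholesterol out of the late endosome and lysosome. NPC1 scored 1386 and 1350 with shMETTL3-1, 2432 and 2774 with shMETTL3-2, and 1486 and 1576 with shLuc, and NPC2 1022 and 1060, 1365 and 1378, and 1018 and 1052 in the same groups. Both rose with shMETTL3-2, by 0.76 (adjusted p = 0.00011) and 0.41 (adjusted p = 0.000588). The change of NPC1 with shMETTL3-1 (-0.16, adjusted p = 0.0949) passed without shMETTL3-2 replicate 1 or replicate 2, at the same value of -0.16. Both genes were lower with shMETTL3-1 than with shMETTL3-2, with log2 differences of -0.93 for NPC1 (adjusted p = 3.78e-05) and -0.40 for NPC2 (adjusted p = 0.000579).

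STARD4, a soluble carrier that moves sterol between membranes and a known SREBP target (chromosome 5, 110831731 to 110848208), was called lower whichever hairpin was used. Its scores were 1396 and 1460 with shMETTL3-1, 3161 and 3096 with shMETTL3-2, and 5640 and 5966 with shLuc. STARD4 fell 4.06-fold with shMETTL3-1 (log2 -2.02, SE 0.05, adjusted p = 8.07e-07) and 1.85-fold with shMETTL3-2 (-0.89, adjusted p = 1.18e-05), with no overlap between the groups. The lncRNA gene STARD4-AS1 overlaps it on the other strand, and strand use in counting is not given in the sources used here. This applies to 17 members in all, 5 of them overlapped by a protein-coding gene: ACAT2 (SOD2 and TCP1), MVK (MMAB), GGPS1 (ARID4B), SREBF1 (RAI1) and NPC1 (RMC1).

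ABCA1, the exporter that loads cholesterol onto apolipoprotein A-I (chromosome 9, 107543283 to 107690518), scored 809 and 862 with shMETTL3-1, 510 and 548 with shMETTL3-2, and 210 and 256 with shLuc. It rose 3.59-fold with shMETTL3-1 (log2 1.84, SE 0.11, adjusted p = 1.19e-05) and 2.27-fold with shMETTL3-2 (1.19, adjusted p = 8.51e-05). In contrast to most enzymes, ABCA1 was higher with shMETTL3-1 than with shMETTL3-2 (0.66, adjusted p = 0.00136). MYLIP, the ubiquitin ligase also called IDOL that degrades lipoprotein receptors and a known liver X receptor target (chromosome 6, 16129356 to 16147112), had another order. It scored 28 and 18 with shMETTL3-1, 304 and 432 with shMETTL3-2, and 55 and 71 with shLuc. It fell by 1.44 with shMETTL3-1 (adjusted p = 0.00313) and rose by 2.52 with shMETTL3-2 (adjusted p = 0.000197), the largest rise of any member. Between the hairpins it differed by -3.95 (SE 0.27, adjusted p = 1.96e-05). At such low scores the size depends on the pseudocount: with 50 in place of 1, the change with shMETTL3-1 was -0.63 and the difference -2.50, both still called.

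SOAT1, which esterifies cholesterol for storage in lipid droplets, scored 1376 and 1368 with shMETTL3-1, 1262 and 1402 with shMETTL3-2, and 963 and 1146 with shLuc. It was called higher with both hairpins (0.39 and 0.34, adjusted p = 0.00939 and 0.0156), and the hairpins differed by 0.05 (95% interval -0.17 to 0.26). The SOAT1 call with shMETTL3-1 was lost without shMETTL3-1 replicate 1 (0.38) or replicate 2 (0.39), and that with shMETTL3-2 without shLuc replicate 1 (0.21) or shMETTL3-2 replicate 2 (0.26). OSBP, an oxysterol-binding protein that exchanges sterol for a phosphoinositide at Golgi contacts, passed with neither hairpin (0.14 and -0.08). It was called higher with shMETTL3-1 than with shMETTL3-2 (0.21, adjusted p = 0.0134), except without shMETTL3-1 replicate 1 (0.17).

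Over all 34 members, 9 rose and 12 fell with shMETTL3-1, and 24 rose and 3 fell with shMETTL3-2. Scores of shMETTL3-1 and shLuc did not overlap for 27 of 34 members, near the 79.4% of all genes tested. Those of shMETTL3-2 and shLuc did not overlap for 31 of 34, beside 78.5%. The share of members called with shMETTL3-1, 61.8%, stood near the 58.7% of all genes, and that with shMETTL3-2 was 79.4%, beside 59.6%. Between the hairpins, 23 of 34 members were lower with shMETTL3-1 than with shMETTL3-2, 4 were higher and 7 did not pass. Over all genes, 31.9% were called lower and 31.1% higher in that comparison. Scores of the hairpins did not overlap for 29 of 34 members, near the 82.2% of all genes. In the mean of both hairpins against shLuc, 19 members were called higher and 4 lower, where 58.3% of all genes were called (29.5% higher, 28.8% lower), but with both hairpins treated as 1 group of 4 libraries 2 members were higher and 0 lower.

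Other genes of the pathway were described from 6 lists, whose counts stand beside 30.3% higher and 28.4% lower over all genes tested with shMETTL3-1, and 30.8% higher and 28.8% lower with shMETTL3-2. Of 12 tested genes listed as lipogenic SREBP targets, 0 rose and 7 fell with shMETTL3-1, and 8 rose and 3 fell with shMETTL3-2. Between the hairpins 9 were lower with shMETTL3-1, beside 31.9% of all genes tested. Not all of the list makes fatty acids: MMAB, the gene opposite MVK, is counted among the 8 and the 9. ELOVL6, an elongase of long-chain fatty acids, scored 84 and 76 with shMETTL3-1, 328 and 312 with shMETTL3-2, and 110 and 90 with shLuc. It rose by 1.68 with shMETTL3-2 (adjusted p = 5.89e-05) and changed by -0.31 with shMETTL3-1 (adjusted p = 0.0935), which passed without shLuc replicate 2 (-0.46). ME1, malic enzyme, rose with shMETTL3-2 (0.76, or 0.47 with a pseudocount of 50). FADS1, a desaturase, and LPIN1, a phosphatidate phosphatase, fell with both hairpins, FADS1 by 0.42 and 0.88 and LPIN1 by 0.69 and 0.60.

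Of 12 lipoprotein receptor and uptake genes, 6 rose and 4 fell with shMETTL3-1, and 2 rose and 5 fell with shMETTL3-2. The share called with shMETTL3-2, 58.3%, was near the 59.6% of all genes tested, and with shMETTL3-1 it was 83.3%, beside 58.7%. LIPA, the lysosomal lipase that frees cholesterol from lipoprotein esters, scored 1460 and 1382 with shMETTL3-1, 644 and 741 with shMETTL3-2, and 144 and 152 with shLuc. LIPA rose by 3.25 (adjusted p = 9.59e-07) and 2.22 (adjusted p = 2.73e-06), in the same order of groups as ABCA1. VLDLR, a receptor for triglyceride-rich lipoproteins, rose with both (0.84 and 0.99), and LRP8, a related receptor, fell with both (-1.22 and -1.05).

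The list of the liver X receptor axis had 9 tested genes, of which 5 rose and 0 fell with shMETTL3-1 and 3 rose and 3 fell with shMETTL3-2. The share called was 55.6% with shMETTL3-1, near the 58.7% of all genes tested, and 66.7% with shMETTL3-2, beside 59.6%. ABCA7, a lipid transporter, rose with shMETTL3-1 (1.24) and changed by 0.27 with shMETTL3-2, a call lost without shLuc replicate 1 (0.28), shLuc replicate 2 (0.27) or shMETTL3-2 replicate 2 (0.23). ABCA2, a related transporter, rose with shMETTL3-1 (0.85); its change of -0.15 with shMETTL3-2 passed only without shMETTL3-2 replicate 2 (-0.21) among the fits leaving out a library. Among 21 genes of a list of sterol transfer proteins and related genes, 8 rose and 5 fell with shMETTL3-1, and 9 rose and 6 fell with shMETTL3-2. Their share called was 61.9% with shMETTL3-1, near that of all genes, and 71.4% with shMETTL3-2. OSBPL1A (1.32 and 1.45) and GRAMD3 (0.72 and 1.30) rose and OSBP2 fell with both (-1.33 and -1.63). OSBPL10 fell with shMETTL3-1 (-0.94) and was called lower with shMETTL3-2 (-0.41), except without shLuc replicate 2 (-0.34) or shMETTL3-2 replicate 1 (-0.31).

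Of 15 genes for degradation and sterol sensing in the endoplasmic reticulum, 6 rose and 4 fell with shMETTL3-1, and 6 rose and 2 fell with shMETTL3-2. Their share called was 66.7% with shMETTL3-1, beside 58.7% of all genes tested, and 53.3% with shMETTL3-2, beside 59.6%. RNF145, a sterol-responsive ubiquitin ligase, scored 364 and 348 with shMETTL3-1, 1090 and 1270 with shMETTL3-2, and 1031 and 1084 with shLuc, a fall of 1.57 with shMETTL3-1 (adjusted p = 9.31e-06). Its change of 0.15 with shMETTL3-2 passed without shMETTL3-2 replicate 1 (0.26). C12orf49, also known as SPRING, a factor that SREBP signalling needs, scored 360 and 396 with shMETTL3-1, 809 and 869 with shMETTL3-2, and 774 and 824 with shLuc, a fall of 1.08 (adjusted p = 3.27e-05). ERLIN2, a lipid raft protein of the endoplasmic reticulum, rose with shMETTL3-1 (1.23). RNF139, a ubiquitin ligase, rose with shMETTL3-2 (0.65), and its change of 0.41 with shMETTL3-1 was called except without shLuc replicate 1 (0.34), shLuc replicate 2 (0.47), shMETTL3-1 replicate 1 (0.45) or shMETTL3-1 replicate 2 (0.35). The hairpins differed for RNF139 only without shMETTL3-2 replicate 1 (-0.46) among those fits.

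The isoprenoid branch, which uses the products of FDPS and GGPS1 for prenylation, ubiquinone and dolichol, had 7 of 17 genes higher and 6 lower with shMETTL3-1, and 7 higher and 3 lower with shMETTL3-2. Its share called with shMETTL3-2, 58.8%, was near the 59.6% of all genes tested, and with shMETTL3-1 it was 76.5%, beside 58.7%. ZMPSTE24, the protease that processes prelamin A, rose with both (1.25 and 1.98), as did PDSS2 (0.82 and 2.00), a subunit of the enzyme that makes the ubiquinone side chain. PDSS1, its partner subunit, fell with shMETTL3-1 (-1.36), and its change of -0.08 with shMETTL3-2 did not pass (adjusted p = 0.789). With a pseudocount of 50, the shMETTL3-1 changes of PDSS1 and PDSS2 were -0.64 and 0.52, both low-scoring genes. TRIT1, which isopentenylates transfer RNA, fell with both (-0.97 and -1.10).

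**Figure D4:**
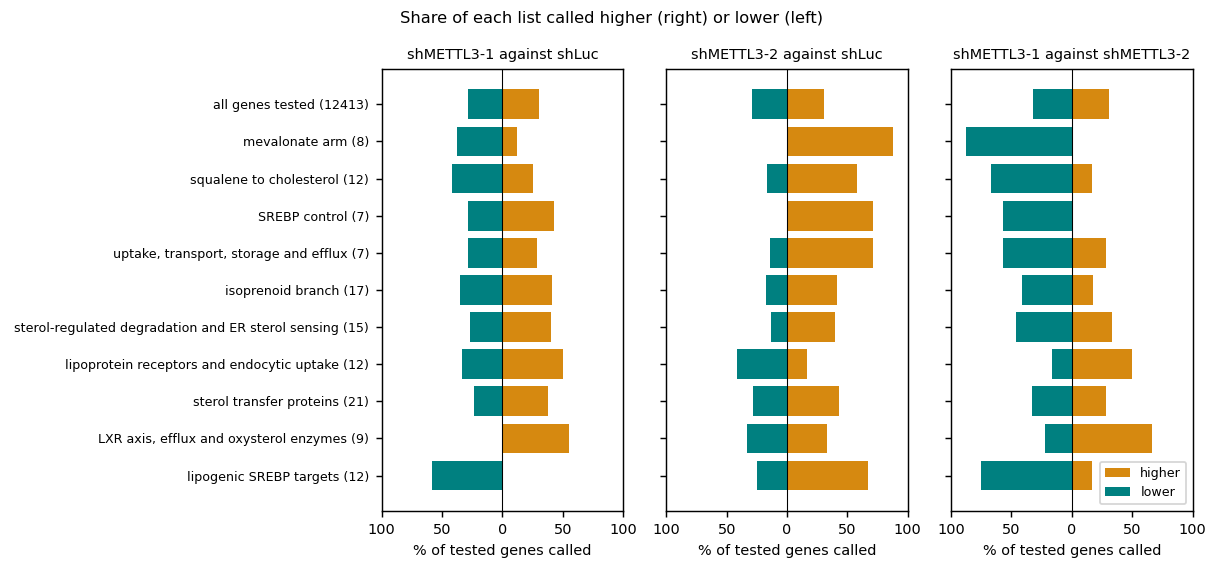
Bars show the share of each list's tested genes (number in brackets) called higher, to the right, and lower, to the left, in 3 comparisons, with all genes tested in the top row. The lists of members and the lipogenic list have most of their tested genes to the right in shMETTL3-2 against shLuc. In shMETTL3-1 against shMETTL3-2 most of their tested genes lie to the left. In that comparison 7 of 17 isoprenoid genes were lower and 3 higher, and 7 of 15 degradation genes were lower and 5 higher. The sterol transfer list, with 7 of 21 lower and 6 higher, was near the 31.9% and 31.1% of all genes tested.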

How the data were processed

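RNA-seq was done on 6 libraries of LX2 cells. The genome was hg19, per the labels' protocols. Which aligner, counter and strand setting were used is not given in the sources used here. Although named counts, the deposited matrix has columns that share 1 distribution, so its values were taken as a score computed by the authors, and no count model was run. Genes with a mean score of 50 or more (12413 of 12654) were fitted as log2(score + 1) by limma (version 3.58.1, R 4.3.3) using group means, a spread shared by all 6 libraries, a mean-variance trend and robust moderation. Contrasts were each hairpin against shLuc, their mean against shLuc, and the hairpins against each other (shMETTL3-1 minus shMETTL3-2). Two-sided p-values were Benjamini-Hochberg adjusted over the genes tested, and a gene is called (rose, fell) at an adjusted p under 0.05. The fit was tested on simulated data. Alternatives were 2 other pseudocounts, other filters, plain moderation, fits of the compared groups, TMM factors, a replicate block and leaving out each library. Fold changes are on the log2(score + 1) scale, which understates low genes. Named genes are all members, METTL3 and, per other list, the 2 largest called rises and falls in the mean of both hairpins; 1 gene that this rule names is not reported here. Members and lists were chosen with earlier results of these data known, so no p was adjusted over a list and no list was tested. No count of genes called with both hairpins is used as a result, since both comparisons share the shLuc libraries. Promoters came from RefSeq tables (GRCh38.p14), overlaps from a GRCh37 annotation. Depth, and so counting error, is unknown.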

Additional observations from a re-analysis of the deposited data

Results flagged for a closer look

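The members named here were called lower with shMETTL3-1 and higher with shMETTL3-2, and also differed in the direct comparison of the hairpins. In that comparison 63.0% of all genes were called, and shLuc enters only through the shared spread. How many other genes share this pattern was not counted, since both comparisons with shLuc use the same controls, so nothing is read from the number of members listed. The log2 difference, shMETTL3-1 minus shMETTL3-2, was -1.23 for MVK, -2.58 for PMVK, -1.15 for MVD, -1.83 for CYP51A1, -1.72 for SC5D, -1.77 for DHCR7, -0.74 for SREBF1, -1.04 for SREBF2 and -3.95 for MYLIP. Of these, the calls of MVD, DHCR7, SREBF1 and PMVK against shLuc depend on single libraries, as given with their values above. Groups of 2 libraries are too small for a test of outlying samples.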

How the results depend on the processing

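Over 8 other settings and 6 fits leaving out 1 library, 22 of 23 lower and 3 of 4 higher member calls between the hairpins held in every fit that tested the gene, as did 20 of 24 rises and 2 of 3 falls with shMETTL3-2, and 6 of 9 rises and 8 of 12 falls with shMETTL3-1. With both hairpins as 1 group of 4 libraries, the mean comparison called 1494 genes, 2 members higher and 0 lower; that fit puts the difference between the hairpins into the spread. With TMM factors the uncalled changes with shMETTL3-1 turned for MSMO1 (-0.009) and NPC2 (-0.008). Leaving out 1 library turned the sign of further uncalled values. With shMETTL3-1 these were SQLE (-0.004 to 0.304), MSMO1 (-0.095 to 0.108), EBP (-0.005 to 0.171), INSIG2 (-0.358 to 0.126), NPC2 (-0.018 to 0.035), IDI1 (-0.003 to 0.126) and ACAT2 (-0.168 to 0.023). With shMETTL3-2 they were INSIG2 (-0.061 to 0.423) and PDSS1 (-0.312 to 0.147), and between the hairpins MBTPS2 (-0.122 to 0.009), SCAP (-0.068 to 0.087), SOAT1 (-0.031 to 0.12) and GGPS1 (-0.055 to 0.235). Without trend and robust moderation, shMETTL3-1 calls of MVD, LBR, DHCR7, SREBF1 and INSIG1 did not pass. Leaving out 1 library, members called ranged from 6 to 8 higher and 8 to 13 lower with shMETTL3-1, 21 to 24 and 2 to 3 with shMETTL3-2, and 3 to 4 and 22 to 23 between the hairpins. Same-numbered replicates deviated together little (r = 0.015 to 0.047 across genes), so numbers were not taken as pairs; a replicate block called 7698, 7769 and 8196 genes (7281, 7400 and 7824 without it), with 10 members higher and 12 lower with shMETTL3-1, 25 and 3 with shMETTL3-2, and 5 and 23 between the hairpins. Scores on a shared distribution hide depth and any shift common to all genes.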
